A study of Drosophila melanogaster with 3 samples.

Results

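The genes that encode the proteasome were compared with the binding sites of the zinc-finger transcription factor salr (Spalt-related) in Drosophila prepupae. The 48 members are the protein-coding genes whose symbol is Prosalpha, Prosbeta, Rpn or Rpt followed by a digit, of 13945 protein-coding genes on the 6 major chromosome arms. A gene was called bound when the summit of a peak lay within 500 bp of any of its annotated start sites. Of the 48 genes, 1 was bound, Rpn5, which is 2.08% against 12.5% of all protein-coding genes. No other member had a summit closer than 1473 bp.

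Binding was measured by ChIP-seq in whole animals of mixed sex at the prepupal stage, with age given as unknown. All samples came from 1 stable transgenic line in which salr carries GFP at its C-terminus, and chromatin sonicated to 200 to 800 bp was recovered with an antibody to GFP. The 3 libraries are labelled biological replicates of 1 group with no untreated or control group beside it, and the signal averages over every cell type of the animal. The peaks used are those that passed the irreproducible discovery rate (IDR) step, which keeps peaks ranked alike in the replicates, and each carries a signal value, the authors' own score.

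The 6485 IDR peaks had signal values of 116 to 2035 with a median of 195. The list of each replicate and the list called on the pooled replicates held 30000 entries each, and these lists include background entries as input for the IDR step. For each replicate, the 6485 best-ranked entries were therefore used beside the full list. The score has no stated scale and fell from a maximum of 942 in replicate 1 to 649 in replicate 2 and 537 in replicate 3, so peaks were ranked only inside their own list. Read totals were not used, so the depth behind each peak is unknown.

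The proteasome degrades proteins tagged with ubiquitin. Its core particle stacks outer rings of alpha subunits, which gate the entry, on inner rings of beta subunits, some of which carry the proteolytic sites. A regulatory particle caps the core: its base holds the Rpt ATPases that unfold and thread the substrate and the Rpn subunits that receive ubiquitin, and its lid holds the deubiquitinase Rpn11 on a scaffold of other Rpn subunits. In Drosophila, several subunits have a second gene copy, marked T or R in the symbol, and those marked T are known mainly from the testis.

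Rpn5 (FBgn0028690, a scaffold subunit of the lid) was the only bound member. It spans chr3R:5789493-5791569 on the plus strand of dm6 and has 1 start site, and its promoter is shared with Hat1 (FBgn0037376, a histone acetyltransferase), which is transcribed in the opposite direction. The start sites of the 2 genes lie 109 bp apart. There were 2 IDR summits in the Rpn5 window. The stronger peak, chr3R:5789016-5789515, had its summit at 5789266, 227 bp upstream of the Rpn5 start site, with a signal value of 512 and rank 527 in the list. This summit lay in an intron of Hat1 and 118 bp from a Hat1 start site, closer than to Rpn5. The weaker peak, chr3R:5789230-5789729, had its summit at 5789480, 13 bp upstream of Rpn5 and 96 bp from Hat1, with a signal value of 122 and rank 6111. Its signal value was near the lowest in the list. The 2 peaks overlap, so the lists do not show whether they mark separate sites. The sequences around both summits are shown because these are the only IDR summits within 500 bp of a proteasome gene's start site. They were read from the RefSeq genome sequence of the same assembly, plus strand. The first is the whole stretch between the genes, chr3R:5789385-5789492, and the second is the part of the Hat1 intron around the stronger summit, chr3R:5789216-5789316. Capitals mark the 11 bases centred on a summit.
Rpn5 to Hat1 gap: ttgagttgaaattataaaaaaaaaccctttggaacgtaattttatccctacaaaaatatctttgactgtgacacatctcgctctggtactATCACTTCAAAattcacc
Hat1 intron: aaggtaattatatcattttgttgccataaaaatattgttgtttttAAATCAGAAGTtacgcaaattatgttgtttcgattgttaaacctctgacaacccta

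Both summits at Rpn5 were found in every replicate. The stronger one ranked 606 in replicate 1, 459 in replicate 2 and 772 in replicate 3, with signal values of 219, 171 and 107, and its summits lay 246, 219 and 226 bp upstream of Rpn5. The weaker one ranked 3903, 2739 and 6279, with signal values of 82.1, 70.8 and 31.3, at 36, 19 and 27 bp upstream. In each replicate the stronger summit was also the nearer to a Hat1 start site than to that of Rpn5. Both ranks were best in replicate 2 and poorest in replicate 3. A summit within 500 bp of start sites of 2 divergent genes is counted for both, so these lists cannot say which of the pair it belongs to.

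The share was low in each replicate taken alone. Among the best-ranked peaks, 2 of 48 genes were bound in replicate 1 (4.17%, against 12.3% of all genes), 3 in replicate 2 (6.25%, against 15.2%) and 1 in replicate 3 (2.08%, against 15.1%). The mean over replicates was 4.17% ± 2.08 (SD, n = 3) for the proteasome genes and 14.2% ± 1.65 for all genes. The highest share of the members lay below the lowest share of all genes, so the ranges did not overlap. At 1000 bp the counts stayed at 2, 3 and 1, while the shares of all genes were 15.4%, 18.3% and 18.1%. In the IDR list, 1 member was bound at 250 bp (8.29% of all genes), 1 at 1000 bp (15.6%) and 5 at 2000 bp (20.6%), where the members made up 10.4%. The Wilson 95% interval of 1 in 48 runs from 0.369% to 10.9%. In the IDR list its upper end lies below the 12.5% at 500 bp and the 15.6% at 1000 bp. It holds the 8.29% at 250 bp, and the interval at 2000 bp, 4.53% to 22.2%, holds the 20.6%. At 500 bp the intervals of replicate 1 (1.15% to 14.0%) and replicate 2 (2.15% to 16.8%) hold the shares of all genes. That of replicate 3 lies below its 15.1%. Whether the gap exceeds counting error thus depends on list and window. Such intervals cover counting error only, and genes that share a promoter are not independent.

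**Figure D1:**
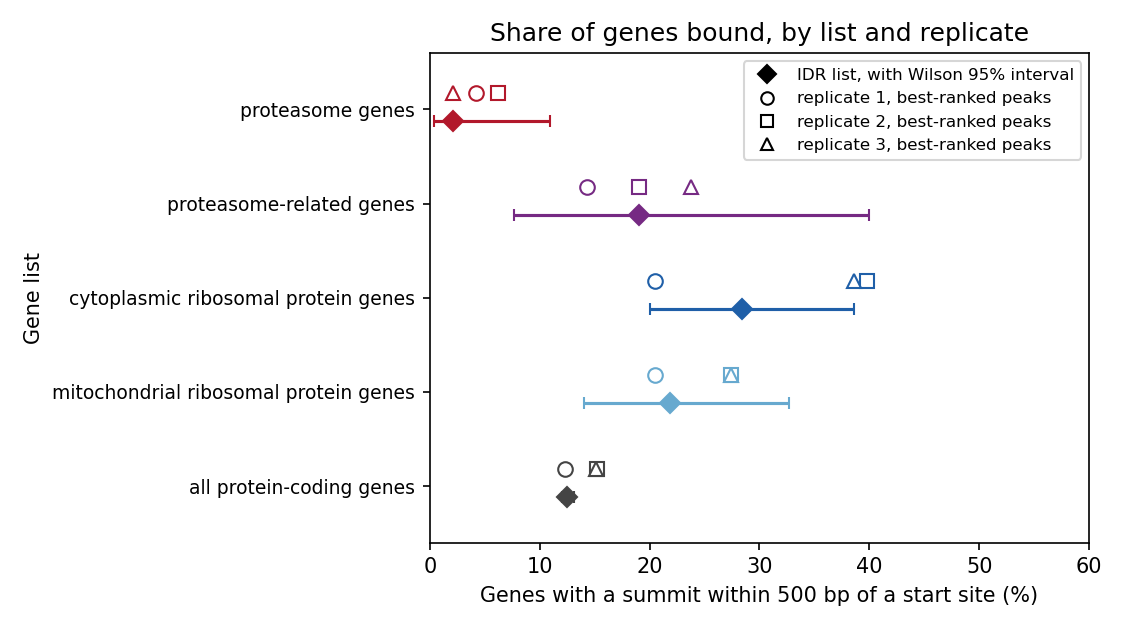
Share of genes with a summit within 500 bp of a start site, in percent, for 5 gene lists. Diamonds with bars give the IDR list and its Wilson 95% interval, and open symbols give the best-ranked peaks of each replicate. The proteasome genes sit lowest, at 2.08% in the IDR list and 2.08% to 6.25% in the replicates.

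The full lists, background entries included, gave larger counts for all genes and for the members. Of the 48 genes, 7 had an entry within 500 bp in replicate 1 (14.6%, against 26.0% of all genes), 8 in replicate 2 (16.7%, against 31.7%) and 6 in replicate 3 (12.5%, against 31.1%). The mean was 14.6% ± 2.08 (SD, n = 3), beside 29.6% ± 3.16 for all genes. In the pooled list 5 members had an entry at 500 bp (10.4%, against 26.0%) and 6 at 1000 bp (12.5%, against 31.8%). In 39 of the 48 promoters no replicate had an entry of any rank, which is 81.2% of the members against 59.6% of all genes. An entry in all 3 replicates was found at 5 members (10.4%), beside 19.6% of all genes, and an entry among the best-ranked of all 3 at 1 (2.08%), beside 9.65%.

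By position in the complex, the alpha ring had 0 of 12 genes bound, the beta ring 0 of 13, the base 0 of 14 and the lid 1 of 9. The intervals of these small groups are wide, up to 24.2% for the alpha ring, 22.8% for the beta ring, 21.5% for the base and 43.5% for the lid, so the subcomplexes cannot be ordered by these counts. With the second copies left out, 32 main genes remained, of which 1 was bound (3.12%, Wilson interval 0.554% to 15.7%). Among the 16 copies 0 were bound, with an upper limit of 19.4%. Both intervals hold the 12.5% of all genes.

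In the lid, Rpn11 (2L, chr2L:5058404-5059790, minus strand), the deubiquitinase that removes ubiquitin chains from the substrate, came closest to a second bound member. Its entry ranked 5785 in replicate 1 and 4397 in replicate 2, inside the best-ranked 6485, and 7980 in replicate 3, outside it. The signal values were 61.9, 51.9 and 26.5, and the summits lay 277, 267 and 334 bp upstream. No other gene had a start site within 500 bp of these summits. The pooled and IDR lists held no summit within 500 bp of Rpn11, and its nearest IDR summit was 7314 bp away at the promoter of eIF3h, a translation initiation factor gene. The stretch chr2L:5059940-5060090 is shown because it holds the only site at which 2 replicates but not the combined list placed a best-ranked summit at a member. It is printed on the minus strand, along Rpn11, with the 11 bases around the replicate 2 summit in capitals.
Rpn11 upstream: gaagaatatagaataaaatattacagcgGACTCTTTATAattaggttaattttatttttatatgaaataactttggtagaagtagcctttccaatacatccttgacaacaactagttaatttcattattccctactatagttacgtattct

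Prosalpha4 (X, chrX:16276270-16277587, plus strand), an alpha ring subunit, had a best-ranked entry in replicate 2 only. Its rank there was 5344, with a signal value of 44.9 and the summit 158 bp upstream. Replicate 2 also had a lower entry, ranked 9949 (27.8), with the summit 41 bp downstream of the start site. Replicate 1 had an entry ranked 12328 (34.3), and replicate 3 had 2 entries ranked 23181 (12.5) and 25621 (11.6). The pooled list placed 2 entries there, ranked 8537 and 11052, below the end of the IDR list. The start site of kat80, which encodes a regulatory subunit of the microtubule-severing enzyme katanin, lies 90 bp from that of Prosalpha4. The best-ranked replicate 2 summit lay closer to kat80, at 68 bp. The lower replicate 2 entry lay closer to Prosalpha4, at 41 bp against 131 bp from kat80. So did the replicate 3 entry ranked 25621, at 33 bp against 57 bp. The other entries, pooled ones included, lay closer to kat80. The stretch between the first exons of the pair, chrX:16276181-16276269, is shown on the plus strand as the other shared promoter with repeated entries, with the 11 bases around the nearer pooled summit in capitals.
Prosalpha4 to kat80 gap: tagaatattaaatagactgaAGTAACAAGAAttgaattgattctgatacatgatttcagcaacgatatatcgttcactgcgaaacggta

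The other promoter entries at members were all ranked below the best 6485 of their list. Rpn12, a lid subunit, had entries in all replicates, ranked 7273, 13892 and 21881, at 105, 358 and 353 bp upstream, and in the pooled list at ranks 9894 and 14047. Rpn13, the ubiquitin receptor of the base, had its best entries at ranks 24815, 10650 and 17592, within 500 bp of the neighbouring CtsL1, a cathepsin gene. Rpn9, a lid subunit, had entries at ranks 24145 and 22561 in replicates 1 and 2 and none in replicate 3. Prosalpha3 had 1 entry, in replicate 2 at rank 10989. The beta copies Prosbeta5R1 and Prosbeta5R2 had entries ranked between 18869 and 29789 in 1 and 2 replicates. With Rpn5, Rpn9, Rpn11 and Rpn12, the share of lid genes with an entry of any rank was 40.7% ± 6.42 (SD, n = 3), beside 29.6% ± 3.16 for all genes, 11.1% ± 4.81 for the alpha ring, 7.69% for the beta ring and 7.14% for the base, the last 2 the same in every replicate. The lid share rests on 3 or 4 of 9 genes, and the Wilson intervals, from 12.1% for 3 up to 73.3% for 4, hold the share of all genes, so the lid is not set apart by it. These lists contain background, so an entry of low rank need not be a binding site.

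**Figure D2:**
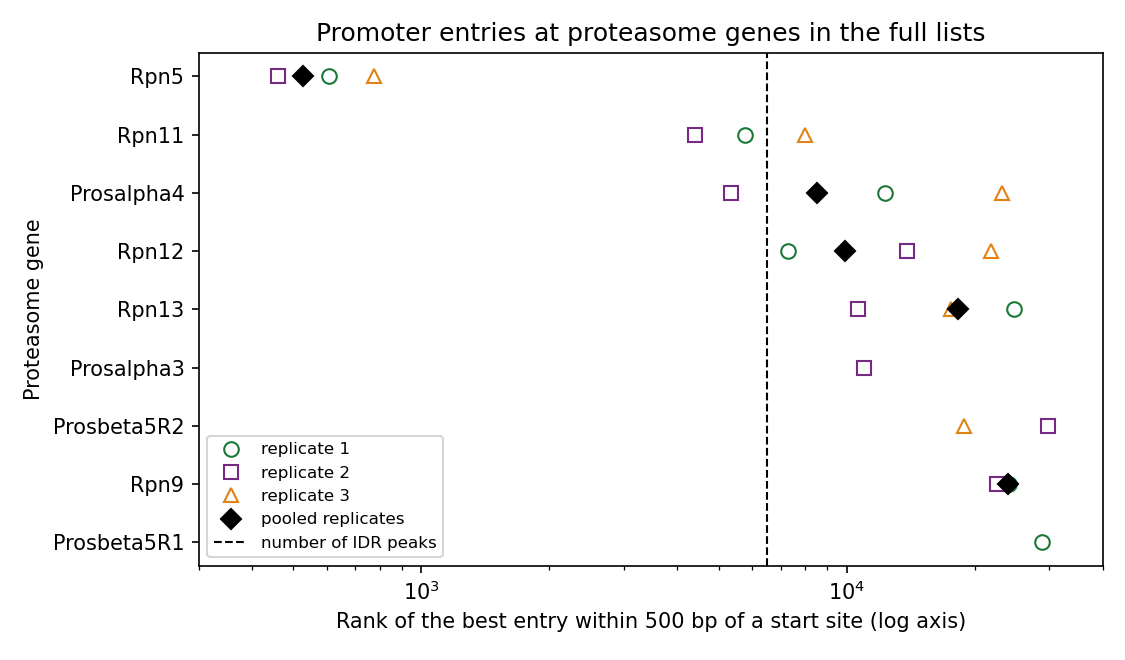
Rank of the best entry within 500 bp of a start site (log axis) for each proteasome gene that has one in any full list, with open symbols for the replicates and diamonds for the pooled list. Only Rpn5 lies left of the dashed line, the number of IDR peaks (6485), in every replicate, at ranks 459 to 772, and the other genes lie around or beyond it.

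As for most genes, the nearest IDR summit to a member was usually a peak at another gene. The 48 members had 46 distinct nearest peaks, of which 26 lay within 500 bp of a start site, 17 in introns and 3 between genes, with a median signal value of 254. For 4 members (8.33%, Wilson interval 3.29% to 19.6%), Rpn5, Rpn9, Prosbeta2 and Prosbeta5R1, the member itself had the start site nearest to that summit, beside 17.1% of all genes and 11.2% of those in the members' span range, so the interval holds both. No member had an IDR summit within its span, with an upper limit of 7.41%, beside 11.8% of all genes and 3.48% of those in the members' span range of 881 to 4500 bp. The median distance was 13281 bp, beside 9997 bp for all protein-coding genes. A summit lay within 5 kb of 29.2% of the members and 33.4% of all genes, within 10 kb of 37.5% and 50%, within 20 kb of 66.7% and 70.6%, and within 50 kb of 89.6% and 90.9%.

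In the alpha ring the nearest summits lay 1768 to 60844 bp away, with a median of 15749 bp. That of Prosalpha4 was 290 bp from the start site of eas, an ethanolamine kinase gene, with a signal value of 124. Prosalpha3 followed at 2091 bp and Prosalpha5 at 4968 bp. Prosalpha1 and its copy Prosalpha1R, 16297 and 19390 bp away, shared their nearest peak, and that of Prosalpha6, 20327 bp away, lay 20 bp from the start site of the ribosomal protein gene RpL7.

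In the beta ring the range was 1961 to 81384 bp and the median 11577 bp. Prosbeta6, a structural subunit without a proteolytic site, had a summit 1961 bp upstream, 107 bp from the start site of CG4101, with a signal value of 234. It was found again in the replicates at 1941, 2002 and 1965 bp with ranks of 2482, 3280 and 1835. Among the genes of the subunits that cut substrates, the distances were those of Prosbeta2 (trypsin-like) at 6047 bp, Prosbeta5 (chymotrypsin-like) at 11577 bp and Prosbeta1 (caspase-like) at 22276 bp. The other structural subunits interleaved with them, Prosbeta7 at 3503 bp, Prosbeta4 at 11256 bp and Prosbeta3 at 25786 bp. The peak nearest to Prosbeta1 was among the strongest, with a signal value of 944 and rank 73, at the promoter of CG8320.

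In the base the range was 2117 to 66905 bp and the median 13096 bp. The ubiquitin receptor gene Rpn13 was nearest, 2117 bp from a summit that lay 2 bp from a start site of AGO1, the Argonaute of the microRNA pathway. Among the ATPase genes, Rpt2 lay 2872 bp from a peak of rank 270 (signal value 664) and Rpt5 lay 5341 bp from a peak of rank 26 (1235), which sat at the promoter of PTPMT1, a mitochondrial phosphatase gene. The peak near Rpt2 was ranked 214 in replicate 1 and 298 in replicate 2, while in replicate 3 the nearest best-ranked summit lay 15277 bp away. The peak near Rpt5 ranked 27, 23 and 34 in the replicates, while no list held an entry within 500 bp of the Rpt5 start site. Rpt1 lay 66671 bp from its nearest IDR summit, but at most 28859 bp from a best-ranked summit in replicate 2 and 39002 bp in replicate 3.

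In the lid, after Rpn5, the nearest summits were those of Rpn12 at 1473 bp and Rpn9 at 1552 bp. The first lay 8 bp from the start site of Smn, the survival motor neuron gene, with a signal value of 173, and was found in the replicates at 1491, 1555 and 1531 bp. The second lay outside the span of Rpn9, in an intron of another gene, although the Rpn9 start site was the nearest to it. Its signal value was 169, and its best-ranked counterparts lay at 1552, 1606 and 1753 bp. The remaining lid genes lay 7314 to 36432 bp away.

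**Figure D3:**
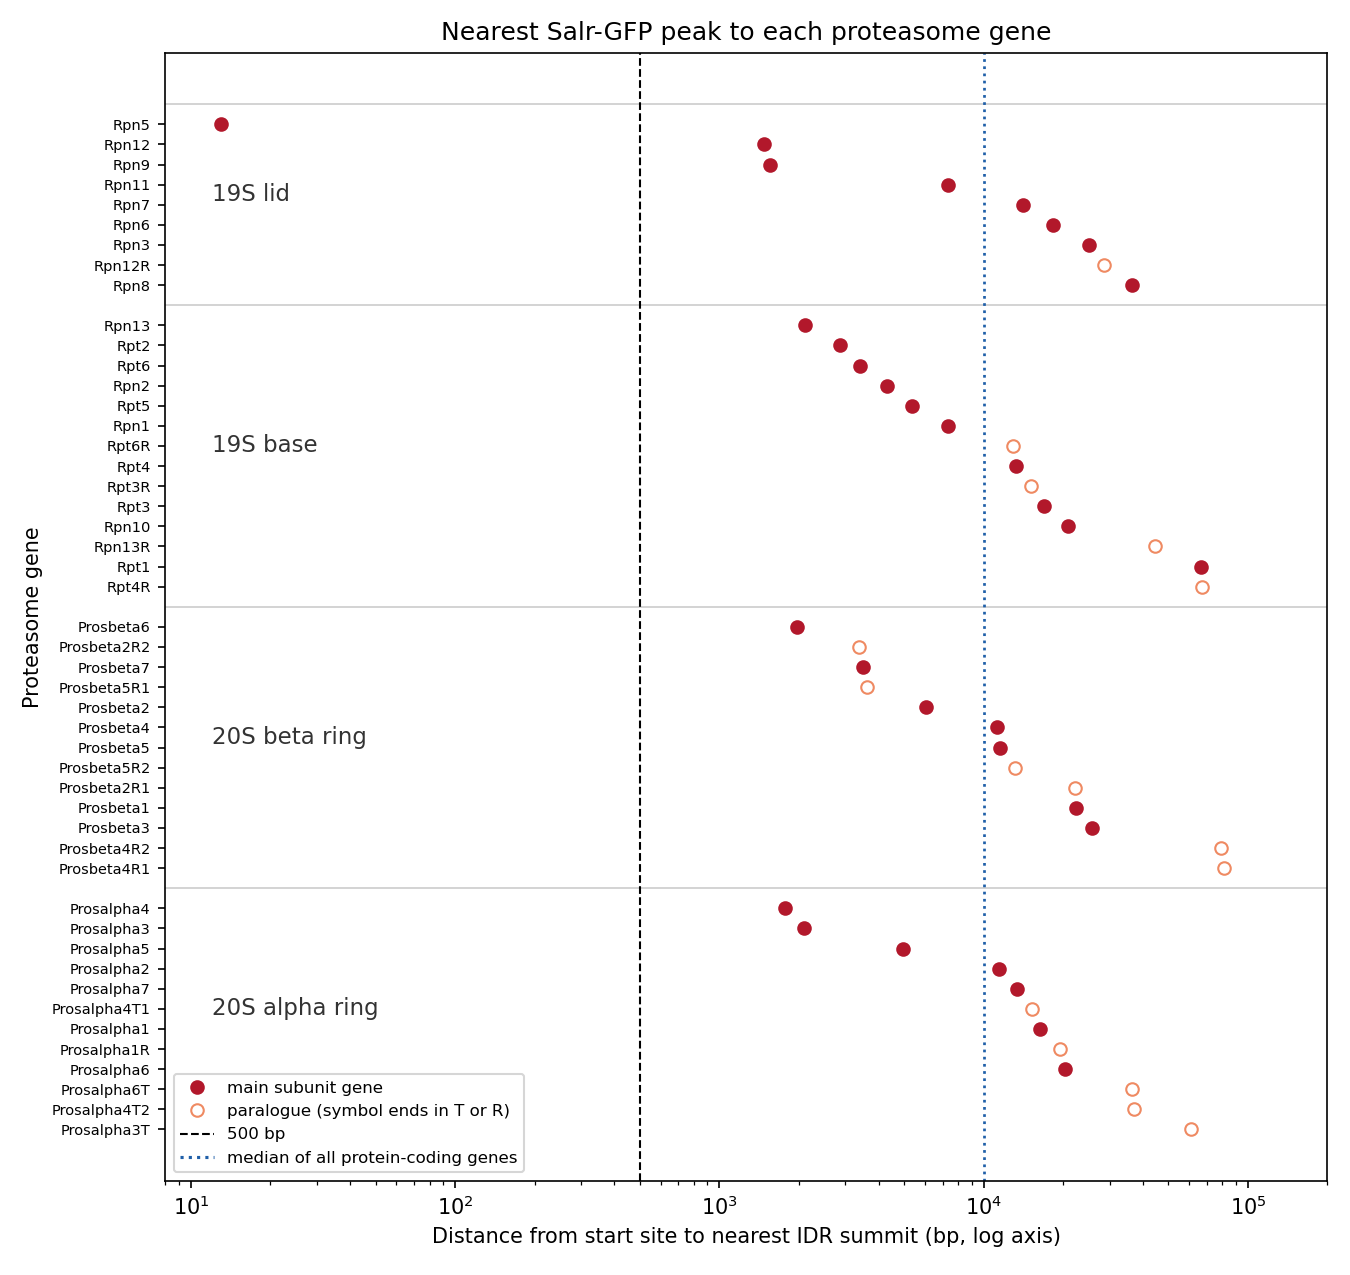
Distance from each proteasome gene's start site to the nearest IDR summit in bp (log axis), by subcomplex, with filled circles for main genes and open circles for copies marked T or R. Rpn5, at 13 bp, is the only point left of the dashed line at 500 bp, and the next is Rpn12 at 1473 bp; the dotted line is the median of all protein-coding genes, 9997 bp.

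In the IDR and best-ranked lists the copies marked T or R lay farther from a summit than the main genes, and in the full lists the order varied. Their median distance was 25341 bp, against 9306 bp for the main genes and 9997 bp for all genes, and the order was the same in all 3 replicates' best-ranked lists, with medians of 25357, 18730 and 17310 bp for the copies and 7286, 6244 and 9131 bp for the main genes. With all entries, background included, the medians of the copies were 5554, 5438 and 4439 bp in replicates 1, 2 and 3. Those of the main genes were 6527, 5268 and 5932 bp. In the pooled list they were 6628 bp for the copies and 6342 bp for the main genes. The copies thus lay slightly farther in replicate 2 and the pooled list, and nearer in replicates 1 and 3. Within 10 kb, 14 of the 16 copies had no IDR summit (87.5%), against 16 of the 32 main genes (50%) and 50.7% of all genes. The 2 exceptions were Prosbeta2R2, 3375 bp from a peak in an intron nearest to cno (signal value 362), and Prosbeta5R1, 3607 bp from a peak between genes (295). Both peaks were found in every replicate, at ranks of 1070, 1207 and 1182 for the first and 1822, 1374 and 2191 for the second. The farthest members were Prosbeta4R1 at 81384 bp and Prosbeta4R2 at 79036 bp, neighbouring copies of a beta subunit that shared their nearest peak, near CG31689. They were followed by Rpt4R at 66905 bp, the main gene Rpt1 at 66671 bp and Prosalpha3T at 60844 bp. In replicate 3 alone, best-ranked summits lay nearer to Prosalpha3T, at 10782 bp, and to Prosbeta4R1, at 46111 bp. Prosbeta4R2 lay at most 48459 bp from one there, the largest distance in the beta ring. Rpt1 lay at most 28859 bp from a best-ranked summit in replicate 2 and 39002 bp in replicate 3. The order of the farthest members therefore differed between replicates.

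**Figure D4:**
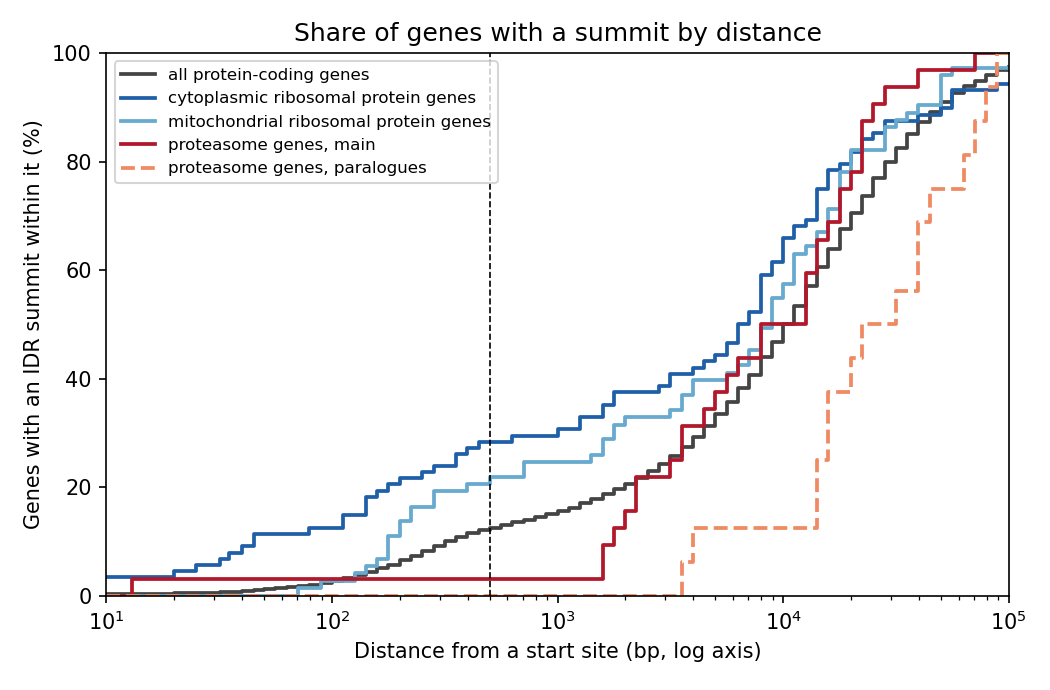
Share of genes in percent that have an IDR summit within the distance on the x axis (bp, log axis). The line of the main proteasome genes stays at 3.12% from 13 to 1473 bp, where all protein-coding genes pass 12.5% at 500 bp (dashed line), and then rises to meet theirs. The copies marked T or R reach 43.8% at 20 kb, against 78.1% of the main genes and 70.6% of all genes.

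The members were shorter than most genes and had about as many start sites. Their median span was 1381 bp (881 to 4500), against 2166 bp for all genes, and 36 of 48 (75.0%) had 1 start site, against 73.5%. Among all genes the share bound rose with the number of start sites, from 7.83% with 1 to 19.7% with 2, 32.5% with 3 and 48.9% with 4 or more. The members were bound in 1 of 36, 0 of 11 and 0 of 1 cases, and none had 4 or more. Among genes with 1 start site, then, the shares were 2.78% for the members and 7.83% for all, and 7.89% for those whose span lies in the members' range. The interval of 1 in 36, 0.492% to 14.2%, holds both of the latter values, so within this class the difference is not beyond counting error. In the replicates the best-ranked shares in this class were 5.56% ± 2.78 for the members and 9.37% ± 1.58 for all genes (SD, n = 3), lower in each replicate. A divergent protein-coding start site within 500 bp, as at Rpn5 and Hat1, was found for 24 of the 48 members (50%, Wilson interval 36.4% to 63.6%), against 27.4% of all genes and 31.1% of those in the members' span range. Of the 24, 1 was bound (4.17%), beside 18.1% of all genes with such a neighbour and 16.8% of those in the members' span range. This share rests on 1 gene of 24 and is given without an interval, so no difference is read from it.

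Known promoter elements were counted between 250 bases before and 50 after the outermost start site, on both strands, as a description of the sequence. The element of DREF, a factor that regulates many growth and proliferation genes, has the letters TATCGATA and was present in 12 of 48 promoters (25.0%), against 9.36% of all promoters. All 12 belonged to main genes (37.5% of 32). Its core ATCGAT, which every full element also contains, was present in 18 (37.5%), against 23.3%. The GAGA element, GAGAG, was present in 9 (18.8%), of which 3 were main genes and 6 copies, against 29.7% of all promoters and 37.6% of those bound by salr. The element of CNC-Maf factors, TGACNNNGC, was present in 6 (12.5%), against 8.63%. Of the 12 promoters with a DREF element, 0 were bound, with a Wilson upper limit of 24.2%, and of the 1305 such promoters of all genes 180 were bound (13.8%), a share that this limit holds. Median GC content was 33.2%, against 38.0% for all promoters and 38.0% for bound ones.

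Of the unbound promoters with a full DREF element on the arms shown, those of Rpn3, Rpn7, Rpn9 and Rpt5 are not printed. The 4 printed examples, along the gene in Release 6, hold it upstream of the start site and outside other genes' exons. They are Prosalpha6 (chr2L:10221217-10221350, plus strand), Prosbeta2 (chr3L:14999701-14999950, plus strand), Prosbeta6 (chr3L:16610419-16610661, minus strand) and Rpn12 (chr3L:16582778-16583027, plus strand), each ending at the base before the start site. Capitals mark matches to the elements: the full element lies at −16 to −9 in Prosalpha6, −10 to −3 in Prosbeta2, −44 to −37 in Prosbeta6 and −216 to −209 in Rpn12, which has a further core at −57 to −52. None of the 4 stretches under or beside summits shown above holds any of the 4 elements.
Prosalpha6: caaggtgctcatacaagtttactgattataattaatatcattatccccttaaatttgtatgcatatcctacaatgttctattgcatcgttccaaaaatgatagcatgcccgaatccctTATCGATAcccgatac
Prosbeta2: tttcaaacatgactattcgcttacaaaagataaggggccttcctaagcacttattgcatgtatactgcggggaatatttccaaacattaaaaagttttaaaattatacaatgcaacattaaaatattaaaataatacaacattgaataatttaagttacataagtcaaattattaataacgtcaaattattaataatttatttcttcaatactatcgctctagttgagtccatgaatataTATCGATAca
Prosbeta6: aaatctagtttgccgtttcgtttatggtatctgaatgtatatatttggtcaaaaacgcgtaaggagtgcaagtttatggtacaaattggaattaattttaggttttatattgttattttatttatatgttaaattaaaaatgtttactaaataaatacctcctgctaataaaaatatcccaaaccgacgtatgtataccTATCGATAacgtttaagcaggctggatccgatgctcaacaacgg
Rpn12: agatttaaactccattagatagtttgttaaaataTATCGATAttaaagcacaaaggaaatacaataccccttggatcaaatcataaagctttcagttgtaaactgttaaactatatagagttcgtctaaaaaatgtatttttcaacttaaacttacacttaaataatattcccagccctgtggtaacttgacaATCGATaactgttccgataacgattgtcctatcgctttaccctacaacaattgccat

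Genes that act with the proteasome but carry other symbols, such as ubiquitin genes, assembly factors and the small lid subunit gene Sem1, were bound in 4 of 21 cases (19%, Wilson interval 7.67% to 40.0%), with 19% ± 4.76 (SD, n = 3) among the best-ranked replicate peaks. The interval holds the 12.5% of all genes. The bound genes were Ubi-p63E, a polyubiquitin gene, with a summit 130 bp from a start site, a signal value of 307 and support in all 3 replicates, and Npl4, an adaptor of the TER94 segregase, at 241 bp with 191 and support in replicates 1 and 3. They also included cnc, which encodes the CNC factor that activates proteasome genes in flies, at 344 bp with 150 and support in replicates 1 and 3, and Pomp, a core assembly chaperone, at 295 bp with 123 and a best-ranked summit in no replicate. The cnc gene has 10 start sites and Ubi-p63E has 4, and genes with 4 or more were bound in 48.9% of cases. Not bound in the IDR list but with a best-ranked summit in 1 or more replicates were PI31, a proteasome-binding regulator, in replicates 2 and 3, Usp14, a proteasome-bound deubiquitinase, and ntc, an F-box partner of PI31, both in replicate 2, and Pngl in replicate 3.

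Ribosomal protein genes, which also encode subunits of large complexes, were bound more often. Of the cytoplasmic set, 25 of 88 were bound (28.4%, 20% to 38.6%), and of the mitochondrial set 16 of 73 (21.9%, 14.0% to 32.7%). Neither interval reaches down to the 10.9% at the upper end of the proteasome interval. In the replicates the best-ranked shares were 33.0% ± 10.8 and 25.1% ± 3.95 (SD, n = 3), against 4.17% ± 2.08 for the proteasome genes, with no overlap between the ranges. Start sites differ between these sets, since 51.1% of the cytoplasmic and 91.8% of the mitochondrial ribosomal protein genes have 1, against 75.0% of the proteasome genes. The DREF element was about as common in them, in 31.8% and 20.5% of promoters.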

How the data were processed

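Peak lists of 3 biological replicates, of the pooled replicates and of the IDR step, on dm6, were used as deposited. Per the file names and notes deposited with them, replicate and pooled lists hold peaks and background, and share a control alignment. Aligner and peak caller: not given in the sources. The signal value is a score deposited by the authors without a stated scale; it ranked peaks and selected nothing else. Other columns, the dm3 lists and read totals were not used.

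For shares and distances, summits (start plus offset, 1-based) were compared with all start sites of protein-coding genes in Ensembl release 115 (BDGP 6.54) on 6 arms. The class of a summit and the gene nearest to it were taken from all annotated genes, noncoding ones included and transposable elements left out. The work used python 3.11.15, pandas 2.3.3 and numpy 2.4.6, and shares got Wilson 95% intervals (scipy 1.17.1). The nearest-summit step was tested on simulated data and found all 200 planted offsets. All 76 coding transcripts of the members began with ATG in the RefSeq Release 6 sequence, and 0 peaks lay past an arm end. All IDR peaks were the best-ranked of the pooled list.

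No test was run, since there is 1 group and members are not replicates. Members, comparison lists, elements and the naming rule were chosen with earlier results of these data known. The rule names members bound at 500 or 1000 bp or in at least 2 replicates, copies with a summit within 5 kb, the 5 farthest members and bound related genes; other names are examples of distance, neighbours or entries chosen after their values were seen. Of 22 related symbols 21 matched, 1 of them (Ufd1-like) by an older symbol, and Pa200 is not analysed here. Ribosomal protein genes were taken by symbol (RpL, RpS, mRpL or mRpS with a digit). Alternatives covered windows, peak lists, peak overlap, start sites, assignment, copies and replicates. Restriction to genes with 1 start site was chosen after seeing the data.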

Additional observations from a re-analysis of the deposited data

How the results depend on the processing

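The share of proteasome genes bound stayed below that of the other protein-coding genes under all 20 alternatives, with ratios of 0.134 to 0.579 around the reported 0.166. A window of 2000 bp gave 10.4% bound and a ratio of 0.506. The 1000 strongest IDR peaks gave a ratio of 0.579 and a median distance of 48556 bp. The full pooled list gave 10.4%, 0.399 and 6628 bp. Best-ranked peaks gave a ratio of 0.339 in replicate 1, then 6.25%, 0.412 and 11220 bp in replicate 2, and 11707 bp in replicate 3. All entries gave 14.6%, 0.561 and 6337 bp in replicate 1, 16.7%, 0.525 and 5268 bp in replicate 2, and 12.5%, 0.401 and 5404 bp in replicate 3. Without the copies marked T or R the median distance was 9306 bp, and for genes with 1 start site the ratio was 0.354. Leaving out each replicate in turn gave a share of 2.08%, with ratios of 0.218 to 0.223 and median distances of 13281 to 14646 bp. These sets are parts of the IDR list, of 4046 to 4359 peaks, so they could not add a bound gene. Rpn5 had best-ranked summits in every replicate, so the unchanged share follows from how the sets were made and is no separate support. A change of window or of assignment gives no new median distance. No paired analysis was possible because the series has 1 group. The main limits are that 1 bound gene of 48 decides the share, that depth and the score's scale are unknown, and that whole animals average over cell types, so a site used in few cells and a weak site in many were not told apart.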
